A study of Homo sapiens with 12 samples.

Results

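Beta-oxidation shortens fatty acids inside mitochondria, and 9 of the 58735 annotated genes were taken here as its core: CPT2, ACADM, ACADS, ETFA, ETFDH, HADHA, HADHB, HADH and ECI1. They were chosen by name for their function, not by any measured value. All 9 were found in the table, and all 9 reached 1 FPKM (fragments scaled to gene length and library size) in 3 libraries or more, the filter for testing. The set had been labelled as mitochondrial and peroxisomal enzymes, but all 9 encode mitochondrial proteins, so they are called mitochondrial here and peroxisomal enzymes are counted separately further on. The cells were HepaRG, a human hepatic line of unmodified genotype known to adopt either hepatocyte-like or biliary states, in 4 groups of 3 libraries. PA+BMS cells were given 50 µM BMS-309403, which blocks the lipid chaperone FABP4, over 24 h and 400 µM deuterium-labelled palmitate (PA) for 4 h. PA+OA cells had 400 µM PA and 200 µM oleate (OA) for 4 h. PA cells had 400 µM PA alone for 4 h, and control cells were left untreated for the same 4 h. The labels give no carrier or vehicle group, no library with BMS-309403 or oleate alone, and no statement that replicates were separate cultures, so p-values measure the spread between these libraries, which may be technical.

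Long-chain acyl groups enter the mitochondrial matrix as carnitine esters and are turned back into acyl-CoA by CPT2. Each turn of the spiral then oxidises, hydrates, oxidises again and cleaves the chain: acyl-CoA dehydrogenases such as ACADM and ACADS take the first electrons, which ETFA and its partner ETFB carry to ETFDH and the respiratory chain, and the trifunctional protein of HADHA and HADHB or the shorter-chain enzyme HADH carry out later steps. ECI1 moves double bonds of unsaturated fatty acids, oleate among them, into a position the spiral can use. In liver the pathway supplies acetyl-CoA for ketone bodies during fasting, and its genes are known targets of the fatty acid-activated receptor PPARA.

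The whole reads behind the deposited FPKM came to between 16059128 and 19971190 per library, and each member had at least 266 reads in every library. Of 9 hepatocyte markers, 0 reached 1 FPKM in any library, and ALB and FGB had 0 reads in all 12. The summed level of 5 bile duct markers, of which KRT7 alone reached 1 FPKM, was 140 to 185 FPKM in PA+BMS libraries, 520 to 917 in PA+OA, 571 to 669 in PA and 477 to 564 in control. That sum was nearly all KRT7, at 139 to 184 FPKM in PA+BMS, and so describes that gene. KRT19, EPCAM and CFTR stayed at or below 0.105 FPKM. SOX9 was not lower in PA+BMS, at 0.563 to 0.641 FPKM. It was 0.375 to 0.477 in PA+OA, 0.429 to 0.623 in PA and 0.359 to 0.503 in control. Along the first principal component of all tested genes, which held 54.4% of the variance, PA+OA replicate 1 lay at 54.6 and PA+BMS replicate 3 at -51.5, with the other 10 libraries between -27.1 and 28.0. Changes of all genes also followed the GC content of the transcript: GC content and gene length together accounted for 43.3% of how log2 fold changes varied between genes when PA was set against control, and for 55.7% with PA+BMS against PA. Each member's value is therefore also given after that trend was removed from each library, and without those 2 libraries where it matters. RNA comes from whole cultures, in which fewer cells of a kind and less RNA per cell cannot be told apart.

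With palmitate 1 of the 9 genes, ACADM, was lower than in control, and with BMS-309403 added to palmitate ACADM and ETFDH were higher and ECI1 and ACADS lower than with palmitate alone. In PA against control, 0 members rose and 1 fell, where 27.6% of all 11856 tested genes passed the same threshold (limma on log2(FPKM + 1), adjusted p under 0.05), 12.8% higher and 14.8% lower. Among the PA+BMS and PA libraries, 2 members were called higher and 2 lower in PA+BMS, against a background of 54.5% of all genes, 25.2% higher and 29.4% lower. With oleate added to palmitate 0 of 9 members were called, against 7.91% of all genes, 4.01% higher and 3.91% lower. Before adjustment, 2474 genes passed 0.05 in PA+OA against PA, and none of the 9 members was among them; without the 2 libraries that stood apart, ACADM alone passed after adjustment. These counts lie near or below the background and are not read as a result about the set as a whole.

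The remaining comparisons share libraries with those above. CPT2 was called higher and ACADM lower in PA+OA than in control, where 36.3% of all genes were called, 17.5% higher and 18.8% lower. Only ETFDH was called in PA+BMS against control, higher, where 11.0% of all genes were called, 4.77% higher and 6.25% lower. Between PA+BMS and PA+OA, ETFDH and ACADM were called higher and ECI1 and ACADS lower in PA+BMS, where the background was 49.6%, with 23.1% higher and 26.4% lower. HADHA, HADHB, HADH and ETFA were called in 0 of 6 comparisons. After the GC and length trend was removed, the share of all genes called was 16.0% in PA against control, 13.1% for PA+OA over PA, 22.5% for PA+BMS over PA, 37.5% for PA+OA over control, 19.0% for PA+BMS over control and 33.6% for PA+BMS over PA+OA. Without the 2 libraries that stood apart the same shares were 56.7%, 25.4%, 55.2%, 39.5%, 18.2% and 21.7%. The median log2 fold change of the 9 members was 0.12 for PA over control, -0.04 for PA+OA over PA and -0.06 for PA+BMS over PA, beside medians over all tested genes of 0.03, 0.00 and -0.04.

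**Figure D1:**
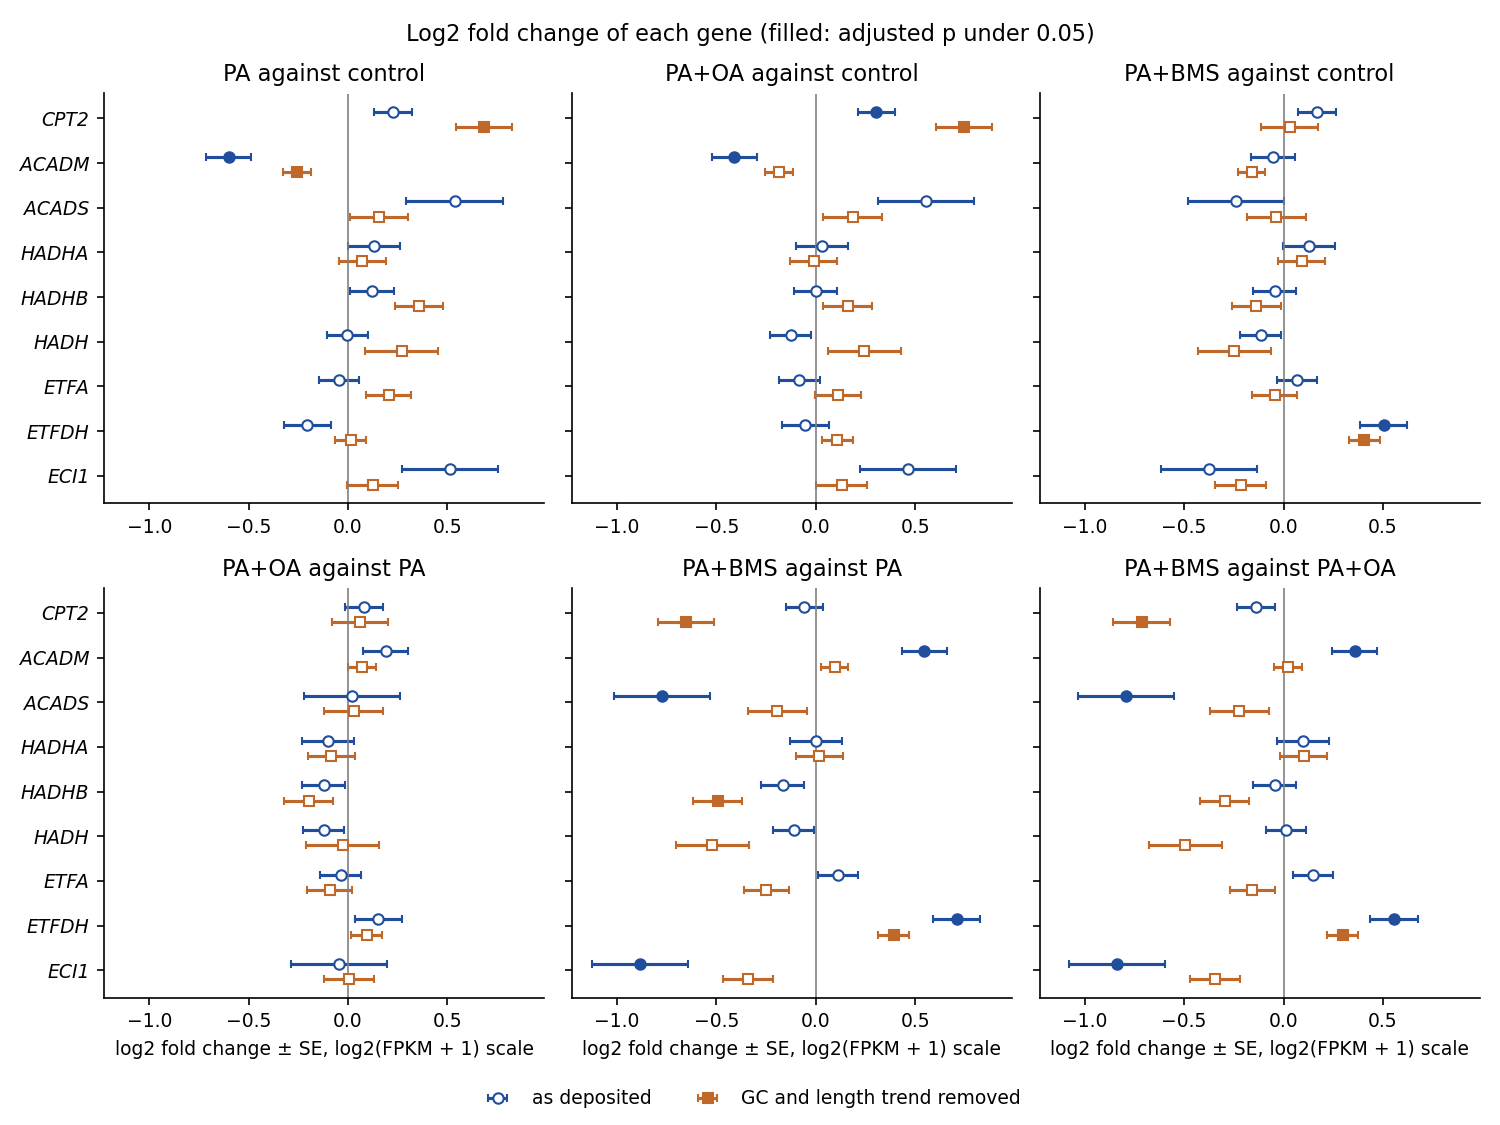
Log2 fold change on the log2(FPKM + 1) scale, with SE, of each of the 9 genes in 6 comparisons. Circles give the deposited values and squares those with the GC and length trend removed, filled where the adjusted p is under 0.05 (limma). ETFDH and ACADM lie to the right and ECI1 and ACADS to the left in PA+BMS against PA, and the 4 genes HADHA, HADHB, HADH and ETFA have open circles in all 6 panels.

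CPT2 (ENSG00000157184, chr1:53196429-53214197 on GRCh38, plus strand) encodes carnitine palmitoyltransferase 2, the inner membrane enzyme that releases acyl-CoA from carnitine. It was the lowest of the 9. Its FPKM was 2.07, 2.14 and 2.12 in PA+BMS, 2.37, 2.39 and 2.49 in PA+OA, 2.28, 2.38 and 2.06 in PA, and 1.58, 1.80 and 1.94 in control, in replicates 1 to 3. Every treated library lay above all 3 control libraries. The group means were 2.42 ± 0.0644 FPKM in PA+OA and 1.77 ± 0.183 in control (SD, n = 3 each), a log2 fold change of 0.31 ± 0.09 (SE, adjusted p = 0.0261, limma). That call was lost without control replicate 1 (0.25, adjusted p = 0.0794), control replicate 2 (0.31, 0.0709), PA+OA replicate 2 (0.31, 0.0532) or PA+OA replicate 3 (0.29, 0.0578). It was also lost with library totals set equal, where the value was 0.15 (adjusted p = 0.355), with voom on recovered reads (0.32, 0.113) and with only the 2 groups in the fit (adjusted p = 0.0836). In PA the mean was 2.24 ± 0.164 FPKM, 0.23 log2 units above control (95% interval 0.02 to 0.43, adjusted p = 0.0872), which did not pass.

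CPT2 has the lowest GC content of the 9, 38.5%, and genes of like GC content moved the other way. Genes in its decile of GC content had a median log2 fold change of -0.37 in PA against control. With the trend removed, CPT2 was called higher by 0.68 in PA than in control (adjusted p = 0.00970) and by 0.74 in PA+OA than in control (adjusted p = 0.00191). On the same scale it was called lower in PA+BMS than in PA, by -0.65 (adjusted p = 0.0135), whereas the value before removal was -0.06 (adjusted p = 0.620). It was likewise lower in PA+BMS than in PA+OA, at -0.71 (adjusted p = 0.00430) with the trend removed and -0.14 (adjusted p = 0.234) before. The removal used the GC content of the longest annotated transcript and the length of all exons together, 10452 bases for CPT2. Whether the cells used that transcript was not tested, so the CPT2 values with the trend removed carry that limit. CPT2 shares 99 exon bases with C1orf123 and 1151 with the barely detected AL606760.2 on the other strand, and the strand setting of the counting is not given in the sources used here. C1orf123 was itself called higher in PA+OA than in control, by 0.44 (adjusted p = 0.0136). Reads from the shared bases cannot be told apart.

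Promoters are shown for the genes whose values the results turn on and for the HADHA and HADHB pair, as given in RefSeq (GRCh38.p14), from 250 bases before to 50 bases after the start site. Capitals mark every match, on either strand, to the GC box GGGCGG (bound by SP factors) and the ETS site CCGGAAG (bound by factors such as GABPA), and overlapping matches run together. RefSeq windows were matched for 8 of the 9 genes, all but ETFDH, and HADH has a second window, which makes 9. CPT2 and ACADM are the low-GC transcripts of the set:
CPT2 promoter, chr1:53196574-53196873, plus strand: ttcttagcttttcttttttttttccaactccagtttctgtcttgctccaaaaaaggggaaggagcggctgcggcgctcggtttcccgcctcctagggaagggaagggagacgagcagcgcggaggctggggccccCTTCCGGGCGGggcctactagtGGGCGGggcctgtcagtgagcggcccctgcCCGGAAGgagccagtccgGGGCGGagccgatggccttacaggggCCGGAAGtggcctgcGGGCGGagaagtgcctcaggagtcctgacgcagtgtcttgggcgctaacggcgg
ACADM promoter, chr1:75724459-75724758, plus strand: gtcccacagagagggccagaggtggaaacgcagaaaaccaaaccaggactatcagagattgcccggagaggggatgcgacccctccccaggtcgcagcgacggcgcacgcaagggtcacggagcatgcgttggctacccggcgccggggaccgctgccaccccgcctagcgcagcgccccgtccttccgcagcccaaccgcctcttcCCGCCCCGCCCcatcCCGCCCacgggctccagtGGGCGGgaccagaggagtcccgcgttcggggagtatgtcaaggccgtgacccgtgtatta
ACADS and ECI1 are the GC-rich transcripts and had the widest ranges of level:
ACADS promoter, chr12:120725576-120725875, plus strand: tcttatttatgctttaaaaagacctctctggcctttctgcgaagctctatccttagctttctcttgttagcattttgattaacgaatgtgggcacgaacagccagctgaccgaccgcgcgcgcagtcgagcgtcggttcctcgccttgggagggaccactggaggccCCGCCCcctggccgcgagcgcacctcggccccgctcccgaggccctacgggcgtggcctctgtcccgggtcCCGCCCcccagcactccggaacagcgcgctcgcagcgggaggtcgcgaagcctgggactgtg
ECI1 promoter, chr16:2251538-2251837, minus strand: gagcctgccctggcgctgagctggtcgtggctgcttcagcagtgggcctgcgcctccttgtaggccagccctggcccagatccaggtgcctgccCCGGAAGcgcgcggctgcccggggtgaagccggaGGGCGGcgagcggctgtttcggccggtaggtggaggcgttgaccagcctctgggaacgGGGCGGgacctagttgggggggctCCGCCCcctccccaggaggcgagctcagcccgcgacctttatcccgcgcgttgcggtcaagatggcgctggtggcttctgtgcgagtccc

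A GC box was present in 8 of the 9 windows, all but the second of HADH, and in 45.0% of all 35116 RefSeq promoters. The ETS site was found in CPT2 and ECI1, and in 10.3% of all promoters. A CCAAT box (CCAAT) was found in the first HADH window and in ETFA and in 34.6% of all promoters. None of the 9 windows held the perfect DR1 PPAR element (0.0228% of all promoters), its half-site AGGTCA (13.8%), the ERR element TCAAGGTCA (0.353%), the palindromic NRF1 site (1.24%), TATAAA (11.5%) or the C/EBP-ATF element TTGCATCA (0.866%). CPT2, ACADM, ACADS and ECI1 have a start region of 64.0% to 71.7% GC, although their transcripts run from 38.5% to 64.6%. This is not particular to them. HADHA, HADHB, ETFA and the first window of HADH had 66.3% to 74.3%, and the second window of HADH had 40.7%. The median over all promoters was 58.7%.

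ACADM (ENSG00000117054, chr1:75724347-75787575, plus strand) encodes the medium-chain acyl-CoA dehydrogenase. Its level was 5.23, 5.30 and 6.72 FPKM in PA+BMS, 3.67, 4.40 and 4.72 in PA+OA, 3.48, 3.76 and 3.56 in PA, and 5.66, 6.17 and 6.09 in control. The 3 PA libraries all lay below the 3 control and the 3 PA+BMS libraries, and PA overlapped PA+OA. The group means were 3.60 ± 0.143 FPKM in PA and 5.97 ± 0.274 in control (SD, n = 3 each), a ratio of 0.603 and a log2 fold change of -0.60 ± 0.11 (SE, adjusted p = 0.00551). This fall in PA passed in all 25 alternative settings, with the GC and length trend removed at -0.26 (adjusted p = 0.0296). It was the only member call in PA against control.

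With BMS-309403 the mean of ACADM was 5.75 ± 0.842 FPKM, 0.55 ± 0.11 log2 units above PA (adjusted p = 0.00527) and not separated from control (log2 fold change -0.05, 95% interval -0.30 to 0.19). The difference from PA shrank to 0.09 with the GC and length trend removed (adjusted p = 0.327). With oleate the mean was 4.26 ± 0.539 FPKM, a log2 fold change of -0.41 against control (adjusted p = 0.0156). That call was lost with the trend removed (-0.18, adjusted p = 0.0566), without control replicate 2 (-0.39, 0.0597) and without control replicate 3 (-0.40, 0.0529). PA+OA stood 0.19 above PA (95% interval -0.06 to 0.44, adjusted p = 0.391), and 0.27 above it without the 2 libraries that stood apart (adjusted p = 0.0267). PA+BMS exceeded PA+OA by 0.36 (adjusted p = 0.0231). The call was lost without PA+OA replicate 1 (0.27, adjusted p = 0.0726), without PA+BMS replicate 3 (0.26, 0.0883), without both of these libraries (0.17, 0.156), with only the 2 groups in the fit (0.36, 0.0997) and with the trend removed (0.02, 0.816). ACADM shares 157 exon bases on the same strand with RABGGTB, a subunit of a protein prenyltransferase, so its reads are partly uncertain. RABGGTB was called higher in PA+BMS than in PA, by 0.41 (adjusted p = 0.0212), and stood at -0.22 in PA against control (adjusted p = 0.189).

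ACADS (ENSG00000122971, chr12:120725735-120740008, plus strand) encodes the short-chain acyl-CoA dehydrogenase. Its FPKM was 9.53, 8.36 and 8.37 in PA+BMS, 26.6, 13.2 and 11.2 in PA+OA, 17.2, 15.0 and 14.9 in PA, and 12.4, 8.56 and 10.9 in control. All PA libraries lay above all control and all PA+BMS libraries, and PA+OA replicate 1 was far above the other 11 libraries. The means were 8.76 ± 0.672 FPKM in PA+BMS and 15.7 ± 1.27 in PA, a log2 fold change of -0.77 ± 0.24 (SE, adjusted p = 0.0202). Once the GC and length trend was removed, the value was -0.19 (adjusted p = 0.344). The call was also lost without PA replicate 1 (-0.71, adjusted p = 0.0613), PA replicate 2 (-0.80, 0.0509) or PA+BMS replicate 3 (-0.75, 0.0600), with library totals set equal (-0.42, 0.0571) and without the filter on low values (-0.77, 0.0712).

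Against control, where the mean was 10.6 ± 1.92 FPKM, ACADS in PA was 0.54 log2 units higher (95% interval 0.01 to 1.06, adjusted p = 0.106) and did not pass. It passed without PA+OA replicate 1, whose spread enters the pooled error (adjusted p = 0.00753 at the same 0.54). ACADS also passed there with only the 2 groups in the fit (adjusted p = 0.0117), a replicate block (0.0410) or array weights (0.57, 0.00333). Without both libraries that stood apart it passed too (adjusted p = 0.00502), which made 5 of 25 alternative settings. With the trend removed it was 0.16 (adjusted p = 0.483). In PA+OA the mean was 17.0 ± 8.38 FPKM, an SD set by replicate 1, and 0.55 above control (adjusted p = 0.0892), passing only without PA+OA replicate 3 among the left-out libraries (0.79, adjusted p = 0.0226). With the replicate number as a block it passed at the same 0.55 (adjusted p = 0.0323), and these are the groups in which all 3 same-numbered pairs of libraries deviated together. PA+OA differed from PA by 0.02 (95% interval -0.51 to 0.55). PA+BMS fell below PA+OA by -0.79 (adjusted p = 0.0203), a call lost with the GC and length trend removed (-0.22, adjusted p = 0.258). It was also lost without PA+BMS replicate 3 (-0.76, 0.0631), with both libraries that stood apart left out (-0.41, 0.0784), with only the 2 groups in the fit (-0.79, 0.0726) and without the filter (-0.79, 0.0694).

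ECI1 (ENSG00000167969, chr16:2239395-2252300, minus strand), the enoyl-CoA isomerase needed for oleate and other unsaturated fatty acids, had the same pattern at a higher level. Its FPKM was 46.5, 41.0 and 29.1 in PA+BMS, 106, 56.4 and 55.2 in PA+OA, 70.5, 75.2 and 68.5 in PA, and 60.3, 43.3 and 47.1 in control. The PA libraries lay above all control and all PA+BMS libraries, and PA+BMS replicate 3 was the lowest of the 12. Its mean was 38.9 ± 8.92 FPKM in PA+BMS and 71.4 ± 3.43 in PA, a log2 fold change of -0.89 ± 0.24 (adjusted p = 0.0122), and -0.70 without PA+BMS replicate 3 (adjusted p = 0.0523). Once the GC and length trend was removed, the difference was -0.34 (adjusted p = 0.0719). PA+BMS was also below PA+OA, by -0.84 (adjusted p = 0.0160). The value was -0.65 without PA+BMS replicate 3 (adjusted p = 0.0707), -0.35 without both libraries that stood apart (0.0988) and -0.35 with the trend removed (0.0544). With only the 2 groups in the fit or without the filter, -0.84 did not pass either (adjusted p = 0.0660 and 0.0558).

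In PA, ECI1 was 0.51 above the control mean of 50.3 ± 8.93 FPKM (95% interval -0.01 to 1.04, adjusted p = 0.118). It passed without PA+OA replicate 1 (adjusted p = 0.0275) and without both libraries that stood apart (0.00428). It also passed with only the 2 groups in the fit (adjusted p = 0.0128), a replicate block (0.0434) or array weights (0.59, 0.00215). These were 5 of 25 alternative settings. With the trend removed the value was 0.12 and did not pass (adjusted p = 0.520). Adding oleate, one of the fatty acids whose double bond ECI1 shifts, gave a mean of 72.4 ± 28.7 FPKM and a log2 fold change against PA of -0.05 (95% interval -0.57 to 0.48). Without PA+OA replicate 1 that difference was -0.35, with both remaining PA+OA libraries below all 3 PA libraries, and it did not pass with both libraries that stood apart left out (adjusted p = 0.0697). With array weights, ECI1 was called lower in PA+OA than in PA (-0.33, adjusted p = 0.0175).

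**Figure D2:**
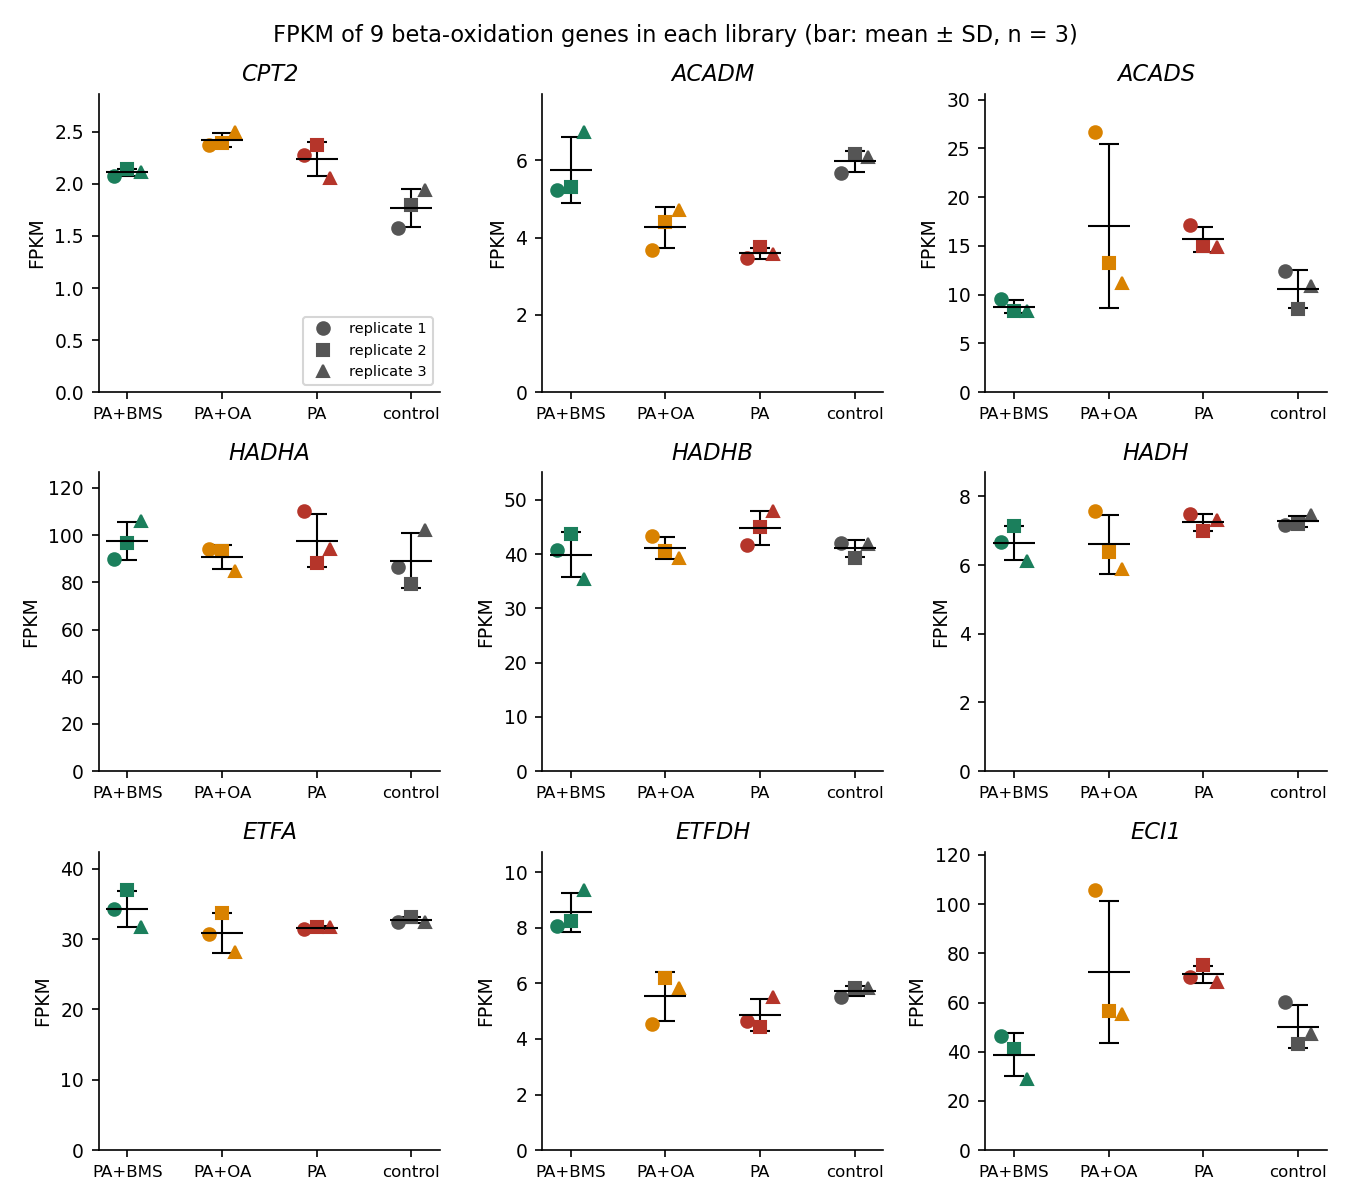
FPKM of each of the 9 genes in each of 12 libraries (marker shape: replicate; bar: mean ± SD, n = 3), with groups in the order PA+BMS, PA+OA, PA and control. ACADM is lowest in PA, ETFDH is highest in PA+BMS, and PA+OA replicate 1 stands far above the other libraries for ACADS (26.6) and ECI1 (106).

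ETFDH (ENSG00000171503, chr4:158672125-158709623, plus strand) encodes the ubiquinone oxidoreductase that receives electrons from every acyl-CoA dehydrogenase through the ETFA and ETFB dimer. It was 8.05, 8.26 and 9.34 FPKM in PA+BMS, 4.54, 6.20 and 5.85 in PA+OA, 4.63, 4.42 and 5.51 in PA, and 5.51, 5.83 and 5.85 in control. All 3 PA+BMS libraries lay above the other 9. Means were 8.55 ± 0.694 FPKM in PA+BMS and 4.85 ± 0.581 in PA, a ratio of 1.76 and a log2 fold change of 0.71 ± 0.12 (SE, adjusted p = 0.00316). The rise in PA+BMS over PA passed in all 25 alternative settings, at 0.39 with the GC and length trend removed (adjusted p = 0.0106). Over PA+OA, where the mean was 5.53 ± 0.877 FPKM, the rise was 0.56 ± 0.12 (adjusted p = 0.00533), and it too passed in all 25.

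Relative to control, at 5.73 ± 0.189 FPKM, ETFDH rose in PA+BMS by 0.50 ± 0.12 log2 units (adjusted p = 0.0196) and by 0.41 with the trend removed (adjusted p = 0.00451). That call was lost without any of the control replicates 1, 2 and 3 (0.48, 0.51 and 0.52, adjusted p = 0.0667, 0.0580 and 0.0583) and without PA+BMS replicates 2 or 3 (0.52 and 0.44, adjusted p = 0.0518 and 0.0583), and with library totals set equal (0.60, adjusted p = 0.0511). In PA, ETFDH stood at -0.21 against control (95% interval -0.46 to 0.05, adjusted p = 0.191). ETFDH was thus the only one of the 9 called in all 3 comparisons that involve PA+BMS. It shares 490 exon bases with PPID, a cyclophilin gene, and 131 with C4orf46, both on the other strand. C4orf46 was called higher in PA+BMS than in PA by 0.78 (adjusted p = 0.00445), and PPID was 0.27 higher (adjusted p = 0.0606). The part of shared reads in the ETFDH change was not tested.

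ETFA (ENSG00000140374, chr15:76215355-76311472, minus strand), the alpha subunit of the electron carrier, stayed within a narrow range. Its FPKM was 34.3, 36.9 and 31.8 in PA+BMS, 30.8, 33.8 and 28.1 in PA+OA, 31.5, 31.6 and 31.8 in PA, and 32.4, 33.2 and 32.4 in control. The 3 PA libraries were all a little below the 3 control libraries, by a log2 fold change of -0.04 (95% interval -0.27 to 0.18, adjusted p = 0.738). PA+BMS exceeded PA by 0.11 (95% interval -0.11 to 0.33, adjusted p = 0.357, limma). This difference passed at 0.48 with library totals set equal (adjusted p = 0.0106) and 0.46 with quantile normalization (0.00714). It also passed at 0.39 with voom (0.0214) and 0.18 with array weights (0.0321), but was -0.25 with the GC and length trend removed. Over PA+OA, ETFA in PA+BMS likewise passed with equal totals (0.48, 0.0108), quantile normalization (0.45, 0.00661) and voom (0.38, 0.0231).

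HADHA (ENSG00000084754, chr2:26190635-26244726, minus strand) and HADHB (ENSG00000138029, chr2:26243170-26290468, plus strand) encode the alpha and beta subunits of the mitochondrial trifunctional protein. HADHA carries the hydratase and long-chain dehydrogenase activities and HADHB the thiolase. The genes lie head to head with start sites 307 bases apart, so their RefSeq windows overlap by 194 bases, and the stretch is shown for both because they share it. Their gene bodies overlap but share 0 exon bases.
HADHA promoter, chr2:26244583-26244882, minus strand: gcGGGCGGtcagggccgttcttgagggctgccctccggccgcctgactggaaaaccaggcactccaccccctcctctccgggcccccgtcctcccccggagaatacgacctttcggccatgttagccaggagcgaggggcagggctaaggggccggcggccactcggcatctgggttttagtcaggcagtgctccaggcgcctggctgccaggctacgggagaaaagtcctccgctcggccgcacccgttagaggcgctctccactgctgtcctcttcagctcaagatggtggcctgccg
HADHB promoter, chr2:26244689-26244988, plus strand: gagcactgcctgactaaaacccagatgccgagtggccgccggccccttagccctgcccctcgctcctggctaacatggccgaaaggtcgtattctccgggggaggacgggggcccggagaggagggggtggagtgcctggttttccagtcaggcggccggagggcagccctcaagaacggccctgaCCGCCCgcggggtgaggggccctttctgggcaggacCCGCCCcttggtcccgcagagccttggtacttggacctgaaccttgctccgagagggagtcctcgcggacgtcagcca
HADHA was 89.7, 96.5 and 106 FPKM in PA+BMS, 94.0, 93.3 and 84.8 in PA+OA, 110, 88.4 and 94.3 in PA, and 86.3, 79.3 and 102 in control. HADHB was 40.7, 43.6 and 35.4 FPKM in PA+BMS, 43.3, 40.6 and 39.3 in PA+OA, 41.6, 45.0 and 47.9 in PA, and 42.0, 39.2 and 41.9 in control. Every pair of groups overlapped for both genes.

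The widest log2 fold change of HADHA was 0.13 (PA against control, 95% interval -0.16 to 0.42) and that of HADHB was -0.17 (PA+BMS against PA, 95% interval -0.40 to 0.07). These intervals leave room for changes of that size, so the test does not show equal levels. With the GC and length trend removed, HADHB was called lower in PA+BMS than in PA (-0.49, adjusted p = 0.0200). HADHA was called higher there with library totals set equal (0.38, adjusted p = 0.0338) and with quantile normalization (0.49, 0.0241). In PA+BMS against PA+OA, HADHA passed with equal totals (0.44, 0.0182), quantile normalization (0.57, 0.0130) and voom (0.33, 0.0366). HADH (ENSG00000138796, chr4:107989714-108035175, plus strand), the dehydrogenase for medium and short chains, averaged 6.65 ± 0.504 FPKM in PA+BMS, 6.60 ± 0.865 in PA+OA, 7.25 ± 0.251 in PA and 7.27 ± 0.169 in control (SD, n = 3 each). Its log2 fold changes ran from -0.13 (PA+OA against control, adjusted p = 0.335) to 0.01 (PA+BMS against PA+OA, adjusted p = 0.929). Without the 2 libraries that stood apart, HADH was called lower in PA+OA than in control (-0.22, adjusted p = 0.0432).

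FPKM is scaled by gene length, here the bases of all annotated exons of a gene together, so the level of a gene is understated where the transcripts in the cell are shorter than that. This length was 12086 bases for HADH and 10452 for CPT2, against 2648 to 5031 for the other 7 genes, and the order below carries that limit. Averaged over the 4 group means, HADHA was highest at 93.7 FPKM, followed by ECI1 at 58.2, HADHB at 41.7, ETFA at 32.4, ACADS at 13.0, HADH at 6.94, ETFDH at 6.17, ACADM at 4.90 and CPT2 at 2.13. Neighbours in this order overlapped over the 12 libraries except ETFA and ACADS, ACADS and HADH, and ACADM and CPT2. The highest library was 3.63 times the lowest for ECI1, 3.18 times for ACADS, 2.12 for ETFDH, 1.93 for ACADM and 1.58 for CPT2, and 1.29 to 1.39 times for HADH, ETFA, HADHB and HADHA. The 9 genes summed to 235 to 249 FPKM in PA+BMS, 238 to 318 in PA+OA, 273 to 289 in PA and 225 to 256 in control, with PA+OA replicate 1 the highest library. As a share of all FPKM in a library the order was another. That share was 0.0895% to 0.0963% in PA+BMS, 0.0791% to 0.0848% in PA+OA, 0.0786% to 0.0861% in PA and 0.0838% to 0.0910% in control. Which group had the most of the set thus depended on the scaling.

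Ratios of 2 genes within a library do not depend on the scaling of that library, and the smallest p that an exact two-sided permutation test of 3 libraries against 3 can give is 0.1, so no ratio could pass 0.05. The HADHA to HADHB log2 ratio averaged 1.29 ± 0.25 in PA+BMS, 1.14 ± 0.05 in PA+OA, 1.12 ± 0.25 in PA and 1.11 ± 0.15 in control (SD, n = 3 each), and groups overlapped in all 6 comparisons. The log2 ratio of ACADM to ACADS was -0.61 ± 0.28 in PA+BMS, -1.90 ± 0.85 in PA+OA, -2.12 ± 0.16 in PA and -0.81 ± 0.33 in control. PA lay below control by -1.31 with no overlap, and PA+BMS lay above PA by 1.51 with no overlap (exact p = 0.1 for both, two-sided). Once the GC and length trend was removed, these differences were -0.41 and 0.29, for a pair whose transcripts have 41.0% and 64.6% GC. Those values were taken on the log2(FPKM + 1) scale and the ratios before removal on log2 FPKM. Part of the shift therefore comes from the change of scale. On the log2(FPKM + 1) scale before removal, ACADM and ACADS stood at -0.60 and 0.54 in PA against control. In PA+BMS against PA they stood at 0.55 and -0.77.

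For ETFA to ETFDH, both near 44% GC (43.8% and 44.1%), the log2 ratio was 2.01 ± 0.21 in PA+BMS, 2.49 ± 0.25 in PA+OA, 2.71 ± 0.16 in PA and 2.51 ± 0.04 in control. PA+BMS lay below each of the other groups without overlap, by -0.49 against PA+OA, -0.71 against PA and -0.51 against control (exact p = 0.1 in each, two-sided). The same differences were -0.45, -0.64 and -0.45 with the trend removed, again on the log2(FPKM + 1) scale. This ratio thus moved little under the removal and the change of scale together. In linear terms ETFA had 3.40 to 4.47 times the FPKM of ETFDH in PA+BMS libraries, 4.81 to 6.78 times in PA+OA, 5.76 to 7.17 times in PA and 5.55 to 5.88 times in control.

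**Figure D3:**
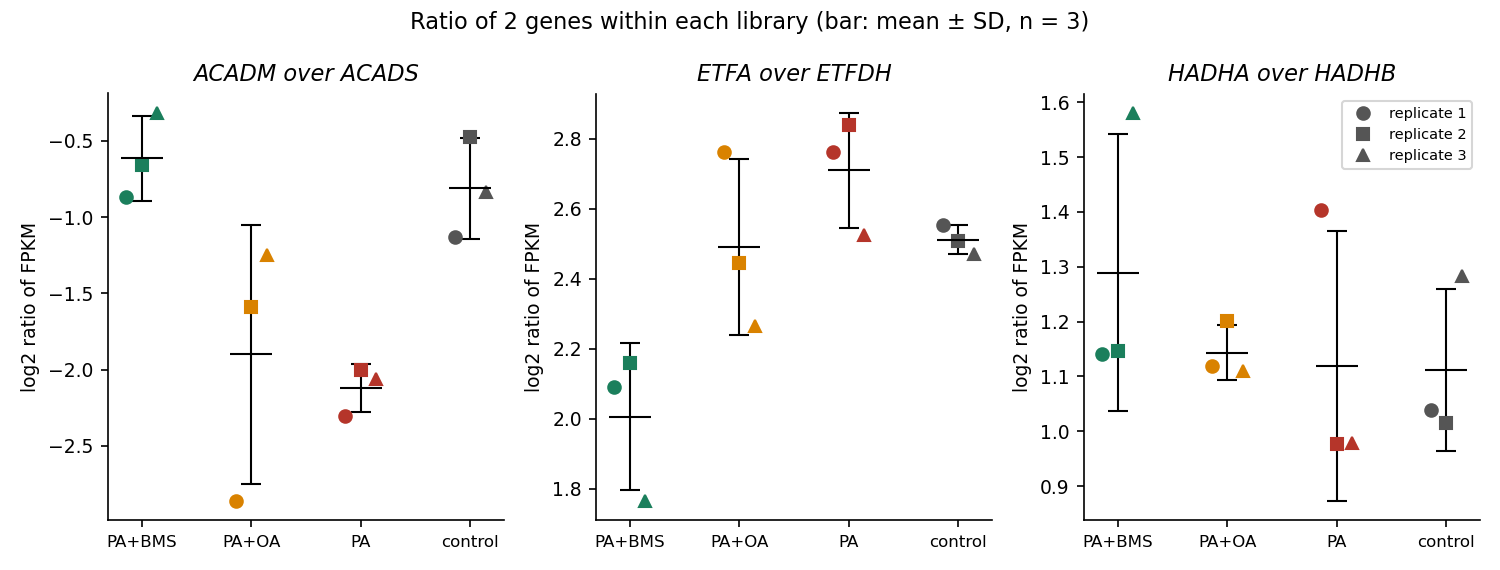
Log2 ratio of FPKM within each library for ACADM over ACADS, ETFA over ETFDH and HADHA over HADHB (points: libraries; bars: mean ± SD, n = 3). The HADHA over HADHB groups overlap throughout, ACADM over ACADS is lowest in PA and in PA+OA replicate 1, and ETFA over ETFDH is lowest in PA+BMS.

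The members' changes can be set against genes of like GC content. In PA against control the median log2 fold change of all genes went with GC content, at -0.37 in the decile of genes with the lowest GC and 0.38 in the decile with the highest, and in PA+BMS against PA the medians at the same ends were 0.48 and -0.59. ACADS (64.6% GC) and ECI1 (61.4%), which stood at 0.54 and 0.51 in PA against control, belong to deciles with medians of 0.38 and 0.39. The upper quartile was 0.52 in both deciles, so ACADS lay just above it and ECI1 just below. ACADM (41.0%) at -0.60 was just below the lower quartile of its decile, -0.59. CPT2, HADHB (43.5%) and ETFA, at 0.23, 0.12 and -0.04, were above the upper quartiles of theirs, -0.18 for CPT2 and -0.09 for the other two. For PA+BMS against PA, ETFDH at 0.71 was above its upper quartile of 0.53. CPT2 at -0.06, HADHB at -0.17, HADH (45.1%) at -0.11 and ETFA at 0.11 were below their lower quartiles of 0.29, 0.14, -0.04 and 0.14. ECI1 at -0.89 was below its lower quartile of -0.71, and ACADS at -0.77 lay at its own, also -0.77. The part of GC-dependent library differences in these results was not tested beyond the removal of the trend, which left 5 of the 12 calls of members over the 6 comparisons and added 4.

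**Figure D4:**
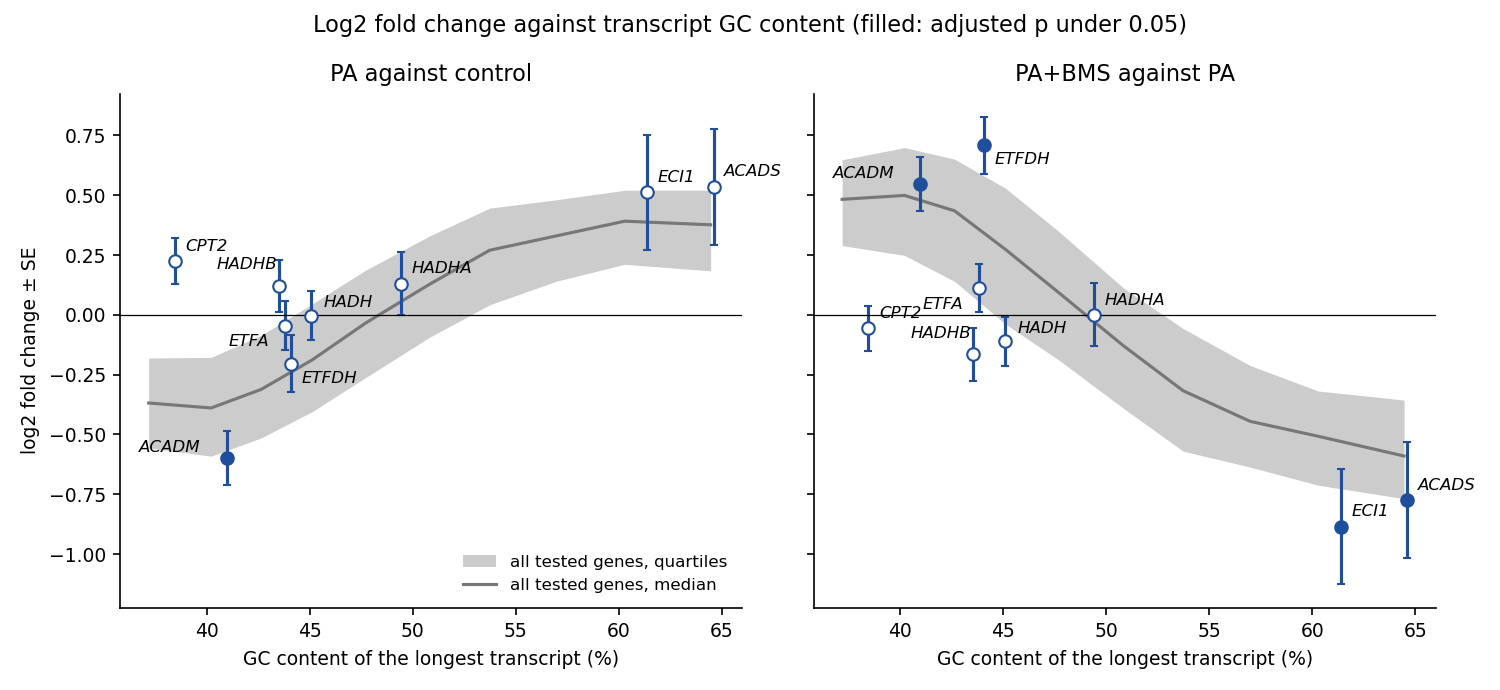
Log2 fold change (with SE) of the 9 genes against the GC content of their longest transcript, over the median (line) and quartiles (band) of all tested genes in deciles of GC content. ACADS and ECI1 lie near the band at the high-GC end and ACADM near it at the low-GC end, while CPT2 lies outside it in both comparisons and ETFDH above it in PA+BMS against PA.

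Over the 12 libraries the pattern of ECI1 on the log2(FPKM + 1) scale was most like that of CUEDC2 (Pearson r 0.997) and NDUFS8, a complex I subunit (0.995). ACADS was most like TRMT2A (0.991) and UBE2M (0.989), ACADM most like USP12 and VPS4B (0.985 and 0.983), and ETFDH most like ZBTB34 and TRAK2 (0.975 and 0.970). The first of each also resembled its member in GC content, at 60.2% for CUEDC2, 63.2% for TRMT2A, 38.7% for USP12 and 42.7% for ZBTB34. This did not hold for CPT2 (38.5% GC), nearest to BCORL1 (r 0.946, 56.4% GC) and PPP1R10 (0.944, 54.2%), or for HADHB (43.5% GC), nearest to CDCA4 (0.883, 52.2%). For HADHA, HADH and ETFA the nearest genes reached 0.947, 0.912 and 0.850. Among the members, ACADS and ECI1 were most alike (0.94), and ETFDH and ECI1 most opposed (-0.87). These values describe 12 libraries that share depth and GC differences and carry no test.

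Of 20 further mitochondrial genes of the pathway, 15 were tested. In PA against control 4 rose (MLYCD, ACAD10, CPT1A, ACADVL) and 2 fell (ACAT1, ACADSB). In PA+BMS against PA 2 rose (ACADSB, ACAT1) and 6 fell (ACAD9, ACADVL, ECHS1, ETFB, HSD17B10, ACAD10). With the GC and length trend removed these counts were 2 higher and 0 lower in PA against control and 0 higher and 3 lower in PA+BMS against PA, and without the 2 libraries that stood apart they were 9 and 2, and 3 and 6. Over all genes the shares called were 12.8% higher and 14.8% lower in PA against control, and 25.2% and 29.4% in PA+BMS against PA. ACADVL, the very-long-chain dehydrogenase, averaged 138 FPKM in PA+BMS, 236 in PA+OA, 230 in PA and 156 in control, and its log2 fold change was -0.75 in PA+BMS against PA (adjusted p = 0.00945) and 0.56 in PA against control (adjusted p = 0.0450), the second of which passed in 4 of 12 fits that each left out 1 library (adjusted p up to 0.146) and stood at 0.23 with the trend removed (adjusted p = 0.170). ACAT1, the mitochondrial acetoacetyl-CoA thiolase, had the pattern of ACADM, at 12.9 FPKM in PA+BMS, 8.64 in PA+OA, 8.81 in PA and 12.7 in control, with -0.49 in PA against control (adjusted p = 0.00593) and -0.16 with the trend removed (adjusted p = 0.294). ETFB, the partner of ETFA, fell in PA+BMS against PA by 0.72 (adjusted p = 0.0159), whereas ETFA was at 0.11. CPT1A, the outer membrane step before CPT2, rose in PA+BMS against control by 0.62 (adjusted p = 0.0107, and 0.0510 without control replicate 2). Its rise in PA against control (0.40, adjusted p = 0.0409) passed in 3 of 12 fits that each left out 1 library. The fall of ACADSB there (-0.37, adjusted p = 0.0433) also passed in 3. With the trend removed CPT1A was 0.34 (adjusted p = 0.0482) and ACADSB 0.04 (adjusted p = 0.788) in that comparison. In PA+OA against PA 0 of the 15 were called, in PA+OA against control 4 rose and 2 fell, in PA+BMS against control 2 rose and 0 fell, and in PA+BMS against PA+OA 3 rose and 5 fell. In the same order, the shares of all genes called higher and lower were 4.01% and 3.91%, 17.5% and 18.8%, 4.77% and 6.25%, and 23.1% and 26.4%.

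Peroxisomes run a separate beta-oxidation, for very long and branched chains, with its own enzymes. Of 19 genes listed for this pathway, for import and for related functions, 15 were tested. The list is wider than beta-oxidation itself: CAT and PHYH, named below, are not among its enzymes. In PA against control 1 rose (CRAT) and 4 fell (CAT, ABCD3, SCP2, HSD17B4), in PA+BMS against PA 6 rose (CAT, SCP2, HSD17B4, PHYH, ABCD3, CROT) and 1 fell (DECR2), and 0 were called in PA+OA against PA or in PA+BMS against control. With the trend removed 0 were higher and 2 lower in PA against control, and 1 was higher and 1 lower in PA+BMS against PA. The background over all genes is that of the preceding list. CAT, catalase, averaged 30.9 FPKM in PA+BMS, 20.1 in PA+OA, 18.0 in PA and 26.0 in control. It fell in PA against control by 0.51 (adjusted p = 0.00869, and 0.00609 with the trend removed) and rose in PA+BMS against PA by 0.75 (adjusted p = 0.00180, and 0.00131 with the trend removed). For HSD17B4, the peroxisomal multifunctional enzyme, log2 fold changes of -0.43 in PA against control and 0.51 in PA+BMS against PA turned to 0.03 and -0.09 with the trend removed. In PA+OA against control 2 rose and 5 fell, where 17.5% of all genes were called higher and 18.8% lower. In PA+BMS against PA+OA 7 rose and 1 fell, where 23.1% of all genes were called higher and 26.4% lower.

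Of 13 regulators and ketone body enzymes, 10 were tested. With PA against control 2 rose (PPARD, ESRRA) and 3 fell (OXCT1, GABPA, PPARG). With PA+OA against PA 0 rose and 1 fell (PDK4), and for PA+BMS over PA 4 rose (OXCT1, PPARG, PPARA, GABPA) and 3 fell (NRF1, ESRRA, RXRA), against the same background in PA against control and PA+BMS against PA and 4.01% higher and 3.91% lower in PA+OA against PA. With the trend removed the counts were 2 and 2, 0 and 1, and 1 and 1. PPARG in PA against control (-0.30, adjusted p = 0.0492) passed in 2 of 12 fits that each left out 1 library and was -0.07 with the trend removed (adjusted p = 0.647). GABPA, an ETS factor, and ESRRA, an estrogen-related receptor, passed in 7 and 8 of those fits and did not pass with the trend removed (-0.14 and 0.29, adjusted p = 0.298 and 0.0658). PPARD, a fatty acid-activated receptor, averaged 9.49 FPKM in PA and 5.50 in control, a log2 fold change of 0.69 (adjusted p = 0.00175, and 0.0201 with the trend removed). PPARA averaged 1.31 FPKM in PA+BMS and 0.665 in PA, so this receptor of the liver was present at a low level. PDK4, a kinase that holds back pyruvate oxidation, averaged 20.3 FPKM in PA+OA and 38.7 in PA, a log2 fold change of -0.97 (adjusted p = 0.0389). When each library was left out in turn, PDK4 passed in 4 of 12 fits, with adjusted p up to 0.128, and it passed with the trend removed (adjusted p = 0.00467). In PA+OA against control 1 rose and 2 fell (2 and 2 with the replicate block), in PA+BMS against control 2 rose and 1 fell, and in PA+BMS against PA+OA 4 rose and 2 fell. The shares of all genes called higher and lower in these 3 comparisons were 17.5% and 18.8%, 4.77% and 6.25%, and 23.1% and 26.4%.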

How the data were processed

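Poly(A) RNA of 12 HepaRG libraries was read as 150 bp pairs, as the labels' protocols state. HISAT2 2.0.5, featureCounts 1.5.0-p3 and CASAVA appear in the submitters' processing notes without roles, and the genome build and strandedness were not given in the sources used here. Identifiers, symbols, starts and ends of all 58735 genes equalled GENCODE 29 on GRCh38. The deposited values are FPKM, as the authors computed them, and all multiplied by gene length gave whole reads (100%, tolerance 0.001). The library size behind FPKM was 0.827 to 1.14 times the read total.

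The 11856 genes that had 1 FPKM or more in 3 or more libraries were tested as log2(FPKM + 1) in R 4.3.3 by limma 3.58.1: one coefficient per group, 8 residual degrees of freedom, eBayes with trend, two-sided, Benjamini-Hochberg adjustment within each of 6 comparisons, called under 0.05. Fold changes on this scale understate those of low genes. Ratios of members used exact permutation tests (SciPy 1.17.1). Alternatives were a pseudocount of 0.1, no filter or 5 FPKM, median-of-ratios, equal totals, quantile normalization, only the 2 groups, a replicate block, array weights, removal of the GC and length trend (natural splines, 5 degrees of freedom, 11848 genes), voom on recovered reads, and libraries left out. Deviations of same-numbered libraries from their group means correlated at 0.156 to 0.488 in PA+OA against control, so blocked values stand beside results there that they change. The labels do not say what a number shares. The procedure was tested on simulated reads with no GC or length trend and no library that stood apart. That test does not cover those features of the real libraries. Members, lists and alternatives were chosen with earlier results of these data known. All members are described, and up to 6 called genes with the smallest p may be named per further list and comparison. Some genes of the further lists are not reported here and were left out of their counts. The marker lists held hepatocyte, bile duct, stellate, macrophage and endothelial genes. C1orf123, AL606760.2, RABGGTB, PPID and C4orf46 are named because they overlap members.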

Additional observations from a re-analysis of the deposited data

How the results depend on the processing

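Of 12 member calls over the 6 comparisons, 3 passed in all 25 alternatives: ACADM in PA against control, and ETFDH in PA+BMS against PA and against PA+OA. No call turned its direction. With 8 residual degrees of freedom pooled over groups of unequal spread, each adjusted p leans on libraries outside its comparison, and 1 library left out moved the number of calls among all genes in PA against control to as few as 795 (without control replicate 2), against 3272 with all 12 and 7234 with array weights. The other ranges were 464 to 5371 around 938 in PA+OA against PA, 2666 to 8215 around 6463 in PA+BMS against PA, 2486 to 7533 around 4307 in PA+OA against control, 654 to 4031 around 1306 in PA+BMS against control and 2066 to 8397 around 5878 in PA+BMS against PA+OA. The causes were not tested.

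Library totals set equal put the median log2 fold change of all genes at -0.19 for PA over control (0.03 otherwise), -0.17 for PA+OA over control (0.01 otherwise), 0.25 for PA+BMS over PA (-0.04 otherwise) and 0.24 for PA+BMS over PA+OA (-0.02 otherwise), and voom put it at -0.15, -0.13, 0.21 and 0.20. The genes called were then 515 higher and 2911 lower in PA against control (1518 and 1754 otherwise), 1222 and 3280 in PA+OA against control (2075 and 2232 otherwise), 4667 and 1202 in PA+BMS against PA (2982 and 3481 otherwise) and 4649 and 1485 in PA+BMS against PA+OA (2744 and 3134 otherwise). Voom gave 839 and 2586, 1529 and 2868, 4168 and 1739, and 4020 and 1979 in the same order.

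Same-numbered replicates correlated at -0.28 to 0.56 over the 6 comparisons, and all 3 pairs were over 0.1 only in PA+OA against control, so blocked values are given there. Whether the numbers pair libraries was not tested. The block was fitted over all 12 libraries, so libraries of PA and PA+BMS also enter the blocked values. A replicate block kept 12 of 12 member calls and added 3, and with the GC and length trend also removed it kept 7 and added 6. Among the members, the number higher in PA than in control was 0, and 2 with the replicate block or only the 2 groups compared, 1 with quantile normalization or the trend removed (with the replicate block too) and 3 with array weights or without both libraries that stood apart. The number lower there was 1, and 2 with array weights. In PA+OA against PA, array weights gave 2 higher and 2 lower and leaving out both such libraries gave 1 higher. In PA+BMS against PA, 2 were higher, 4 with equal totals or quantile normalization and 1 with the trend removed (with the replicate block too), and 2 were lower, 1 without a filter or with equal totals and 4 with the trend removed and the replicate block. In PA+OA against control, 1 was higher, 2 with the replicate block, 3 with array weights and 0 with equal totals, only the 2 groups, voom or a filter at 5 FPKM, which CPT2 did not reach. There, 1 was lower, 2 with equal totals, array weights or both libraries left out, and 0 with the trend removed (with the replicate block too). In PA+BMS against control, 1 was higher and 0 with equal totals. In PA+BMS against PA+OA, 2 were higher, 5 with equal totals or quantile normalization, 4 with voom and 1 with only the 2 groups, the trend removed (with the replicate block too) or both libraries left out. There, 2 were lower, 1 with the trend removed and 0 without a filter, with only the 2 groups or with both libraries left out. With each library left out in turn, the number higher ran from 0 to 2 in PA against control, 0 to 1 in PA+OA against control, 0 to 1 in PA+BMS against control and 1 to 2 in PA+BMS against PA+OA. The number lower ran from 0 to 2 in PA+BMS against PA, 0 to 1 in PA+OA against control and 0 to 2 in PA+BMS against PA+OA.

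Values that did not pass crossed 0 under several settings (log2 fold changes). Library totals set equal gave CPT2 0.20, HADHA 0.38, HADHB 0.21, HADH 0.22 and ACAD10 (called lower otherwise) 0.060 in PA+BMS against PA, CPT2 0.097 and HADHB 0.29 in PA+BMS against PA+OA, ACADM 0.033 and HADHB 0.054 in PA+BMS against control, HADHA -0.15 and HADHB -0.15 in PA against control, HADHA -0.21 in PA+OA against control and ETFA 0.000956 in PA+OA against PA. Voom on recovered reads gave, in the same order, CPT2 0.19, HADHA 0.27, HADHB 0.10 and HADH 0.15, then CPT2 0.029 and HADHB 0.18, ACADM 0.025 and HADHB 0.042, HADHA -0.054 and HADHB -0.062, HADHA -0.11, and ETFA 0.0070. Quantile normalization gave HADHA -0.16, HADHB -0.096 and HADH 0.026 in PA against control, HADHA 0.49 and HADHB 0.23 in PA+BMS against PA, HADHA -0.24 and ETFDH 0.015 in PA+OA against control, HADHB 0.13 in PA+BMS against control, HADHB 0.29 and HADH -0.013 in PA+BMS against PA+OA and ETFA 0.0065 in PA+OA against PA. With the GC and length trend removed, with or without the replicate block, HADHA was 0.018, ETFA -0.25 and HSD17B4 -0.090 in PA+BMS against PA, HADHA -0.011, HADHB 0.16, HADH 0.24, ETFA 0.11 and ETFDH 0.11 in PA+OA against control, HADH 0.27, ETFA 0.20, ETFDH 0.014, ACADSB 0.043 and HSD17B4 0.029 in PA against control, HADH -0.49 and ETFA -0.16 in PA+BMS against PA+OA, ETFA -0.045 in PA+BMS against control and ECI1 0.0060 in PA+OA against PA. HSD17B4 and ACADSB were called in the opposite direction otherwise. Array weights gave ACADS -0.22 and ETFA 0.074 in PA+OA against PA, HADHB 0.059 in PA+BMS against control and 0.072 in PA+BMS against PA+OA, and ETFA 0.028 and ETFDH 0.077 in PA+OA against control. Without both libraries that stood apart, ACADS was -0.34 in PA+OA against PA, HADHB 0.037 in PA+BMS against control and 0.076 in PA+BMS against PA+OA, and ETFDH 0.062 in PA+OA against control.

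With each library left out in turn, ranges that included 0 were ACADM -0.15 to 0.0016 and HADHB -0.11 to 0.037 in PA+BMS against control, ACADS -0.34 to 0.25, ETFA -0.10 to 0.026 and ECI1 -0.35 to 0.11 in PA+OA against PA, HADHA -0.068 to 0.089 in PA+BMS against PA, HADHA -0.050 to 0.13, HADHB -0.039 to 0.029 and ETFDH -0.13 to 0.062 in PA+OA against control, HADHB -0.11 to 0.038 and HADH -0.058 to 0.10 in PA+BMS against PA+OA, and HADH -0.023 to 0.020 in PA against control. The HADHA to HADHB log2 ratio, with the trend removed, differed by -0.29 in PA against control and -0.17 in PA+OA against control, and by -0.012 in PA+BMS against PA+OA without both libraries that stood apart. With the trend removed ACADM to ACADS was -0.12 in PA+BMS against control and ETFA to ETFDH 0.0034 in PA+OA against control. All ratios with the trend removed are on the log2(FPKM + 1) scale. With each library left out, HADHA to HADHB ran from -0.13 to 0.092 for PA over control, -0.048 to 0.17 for PA+OA over PA, -0.017 to 0.12 in PA+OA against control and -0.000509 to 0.22 in PA+BMS against PA+OA, ACADM to ACADS from -0.10 to 0.70 in PA+OA against PA, and ETFA to ETFDH from -0.16 to 0.091 in PA+OA against control.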

Other observations

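Summed markers of other cell types were low but differed between groups: those of stellate cells or fibroblasts and of macrophages were lower in all PA+BMS libraries than in the other 9, and those of endothelial cells were lower in all PA+BMS and PA+OA libraries than in all PA and control libraries. Each of these sums rested on few genes and is not read as an amount of a cell type. Of 5 stellate or fibroblast markers, PDGFRB, COL1A1 and ACTA2 reached 1 FPKM and LRAT had 0 reads, and their sum was 12.1 to 13.2 FPKM in PA+BMS, 14.8 to 17.2 in PA+OA, 16.6 to 17.8 in PA and 14.9 to 16.0 in control. PDGFRB and DCN were lower in all PA+BMS libraries than in the other 9, but COL1A1 and ACTA2 were not. In PA+BMS replicate 1, COL1A1 was 10.4 FPKM, above control replicates 2 and 3 (10.3 and 10.2). ACTA2 in that library was 1.03 FPKM, above all control libraries (0.827 to 0.967). Of 4 macrophage markers CSF1R alone reached 1 FPKM and CD163 had 0 reads, with sums of 0.555 to 0.607 FPKM in PA+BMS, 1.78 to 2.10 in PA+OA, 1.66 to 2.10 in PA and 1.51 to 2.19 in control. The macrophage sum was mostly CSF1R, at 0.518 to 0.607 FPKM in PA+BMS, and so describes that gene. Of 4 endothelial markers CDH5 alone reached 1 FPKM, and the sum was 0.343 to 0.459 FPKM in PA+BMS, 0.287 to 0.454 in PA+OA, 1.06 to 1.35 in PA and 1.36 to 1.82 in control. The endothelial sum was mostly CDH5 and so describes that gene. PECAM1 did not follow it, at 0.136 FPKM in PA+OA replicate 1, above every PA library. CDH5, an endothelial cadherin, was called lower in PA+OA than in PA (log2 fold change -0.71, adjusted p = 0.00397, limma) and in PA+BMS than in PA (-0.66, adjusted p = 0.00379). The 9 hepatocyte markers summed to 0.0241 to 0.131 FPKM in PA+BMS, 0.0854 to 0.309 in PA+OA, 0.0186 to 0.161 in PA and 0.0968 to 0.148 in control. The part of these differences in the members' values was not tested.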
